A study of Mus musculus with 13 samples.

Results

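Osteoclasts are the bone-resorbing cells that open the way for a growing tooth, and their formation is set by a ligand, its receptor and a decoy. The 10 genes described here are the RANKL system (Tnfsf11, Tnfrsf11a and Tnfrsf11b) and 7 genes through which osteoclasts form, attach and resorb (Nfatc1, Siglec15, Ocstamp, Itgb3, Acp5, Ctsk and Mmp9). They were taken by symbol from the 34709 genes of the deposited count table. The list was made with earlier results of these data known, so counts and medians over it are descriptions. RNA was measured by poly-A RNA sequencing of whole lower incisors from male mice at postnatal day 5. There were 5 control libraries, described as wild type in the series' design text, 3 VDRgem libraries and 5 VDR-null libraries, and neither strain nor treatment is given in the labels. As background, VDRgem is a mutant vitamin D receptor known for not responding to the natural hormone while still accepting synthetic gemini ligands, and VDR-null mice lack a working receptor; how either allele was made is not stated in the labels. The labels call the incisors independent but do not say whether each came from its own animal, so a p-value here speaks of the spread among libraries, which may be technical. Libraries are numbered within each group in the order of deposition, and the numbers pair nothing.

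RANKL, the product of Tnfsf11, is a membrane or shed cytokine made by osteoblast-lineage, stromal and dental follicle cells. It binds RANK, the product of Tnfrsf11a, on osteoclast precursors, and osteoprotegerin, the secreted decoy receptor encoded by Tnfrsf11b, takes RANKL out of action. RANK signalling induces the transcription factor NFATc1, which switches on the fusion, attachment and resorption genes. Active vitamin D is a classical inducer of Tnfsf11 in osteoblast-lineage cells, and in the jaw osteoclasts of the tooth crypt make room for eruption.

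The libraries held between 20405188 and 87783466 counts, and no pair agreed within sampling noise (smallest chi-square per degree of freedom 16.5). Marker genes of ameloblasts, the enamel-forming cells, had a mean of 9.34 to 10.60 log2 CPM (counts scaled to library size) in all 13 libraries, and those of odontoblasts, the dentin-forming cells, had 9.04 to 10.09. Vdr itself was read at 142 to 180 CPM in controls, at 107, 205 and 179 CPM in VDRgem 1, 2 and 3, and at 204 to 281 CPM in VDR-null. Its level in VDR-null was not lower than in controls (log2 fold change 0.56 ± 0.15 SE, edgeR adjusted p = 0.0618). A count over the whole gene does not show whether a transcript lacks an exon or carries a point mutation, so it does not check the genotypes. VDRgem 1 was the highest of 13 libraries in 10 of the 10 genes, and VDR-null 1 was the lowest in 6 of them. Their weight in the counts of calls is given beside the results.

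The stretches just upstream of the RefSeq transcription starts are shown for the ligand, its receptor and the effector enzymes Acp5 and Ctsk, since Acp5 and Ctsk moved together across libraries. RefSeq promoter entries on GRCm38.p6 matched 4 of the 10 genes, and Acp5 has 3 starts, of which the most downstream is printed. Capitals mark the NFAT core GGAAA on either strand (TTTCC when read on the other). Each stretch is 250 bases long, 5′ to 3′ on the strand of the gene. They lie at chr14:78308044-78308293 on the minus strand for Tnfsf11, chr1:105780473-105780722 on the plus strand for Tnfrsf11a, chr3:95498960-95499209 on the plus strand for Ctsk, and chr9:22130599-22130848 on the minus strand for Acp5.
Tnfsf11: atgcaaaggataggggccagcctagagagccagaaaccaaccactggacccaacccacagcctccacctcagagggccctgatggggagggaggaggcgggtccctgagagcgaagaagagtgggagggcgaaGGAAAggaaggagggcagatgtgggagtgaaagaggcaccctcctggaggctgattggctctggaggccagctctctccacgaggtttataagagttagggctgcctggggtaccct
Tnfrsf11a: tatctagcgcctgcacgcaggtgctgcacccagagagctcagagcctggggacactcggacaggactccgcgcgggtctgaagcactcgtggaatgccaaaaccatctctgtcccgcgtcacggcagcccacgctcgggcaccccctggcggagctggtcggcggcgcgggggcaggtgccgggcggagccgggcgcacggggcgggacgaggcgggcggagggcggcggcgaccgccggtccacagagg
Ctsk: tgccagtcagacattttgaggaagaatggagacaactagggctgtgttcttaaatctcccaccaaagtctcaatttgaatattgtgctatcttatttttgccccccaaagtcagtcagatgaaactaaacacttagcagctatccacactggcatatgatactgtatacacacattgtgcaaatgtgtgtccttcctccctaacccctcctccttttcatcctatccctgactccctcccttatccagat
Acp5: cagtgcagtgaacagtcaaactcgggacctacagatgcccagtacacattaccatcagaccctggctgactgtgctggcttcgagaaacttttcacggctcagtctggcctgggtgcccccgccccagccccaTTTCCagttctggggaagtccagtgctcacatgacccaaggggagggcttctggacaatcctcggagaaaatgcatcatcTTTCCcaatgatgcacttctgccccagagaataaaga

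The NFAT core occurred 1 time upstream of Tnfsf11, 2 times upstream of the printed Acp5 start and 1 time upstream of each of the other Acp5 starts. It was found in neither the Tnfrsf11a nor the Ctsk stretch. The motif is short, and 55.6% of 32851 RefSeq promoter stretches of the same length hold it. Neither the AP-1 motif TGANTCA (6.75% of all stretches), nor the nuclear receptor half-site AGGTCA (14.02%), nor the direct-repeat type of vitamin D response element (0.0396%) was found, on either strand, in any of the 6 stretches. The distal enhancers known for Tnfsf11 lie far outside such a window.

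In control incisors the resorption enzymes were by far the most abundant of the 10 genes. Per kilobase of exon, Ctsk (cathepsin K, which digests bone collagen) stood at 221 ± 32.4 CPM per kb (SD, n = 5), followed by Acp5 (tartrate-resistant acid phosphatase) at 76.9 ± 18.4 and Mmp9 (gelatinase B) at 62.4 ± 8.83. Acp5 and Mmp9 did not differ beyond their spread. Itgb3 (integrin β3, the attachment receptor of the sealing zone) had 6.55 ± 0.447 CPM per kb and Nfatc1 5.19 ± 0.539, with no overlap between the libraries of these neighbours in the order. Tnfrsf11b had 2.53 ± 0.217 CPM per kb, above both the ligand and the signalling receptor. Tnfsf11 (0.788 ± 0.135), Tnfrsf11a (0.678 ± 0.071) and Ocstamp (0.637 ± 0.160) could not be ordered, and Siglec15 came last at 0.378 ± 0.110, overlapping Ocstamp. In whole-tissue RNA, fewer cells of a type and less RNA per cell cannot be told apart, so each level is that of the incisor and not of an osteoclast.

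**Figure D1:**
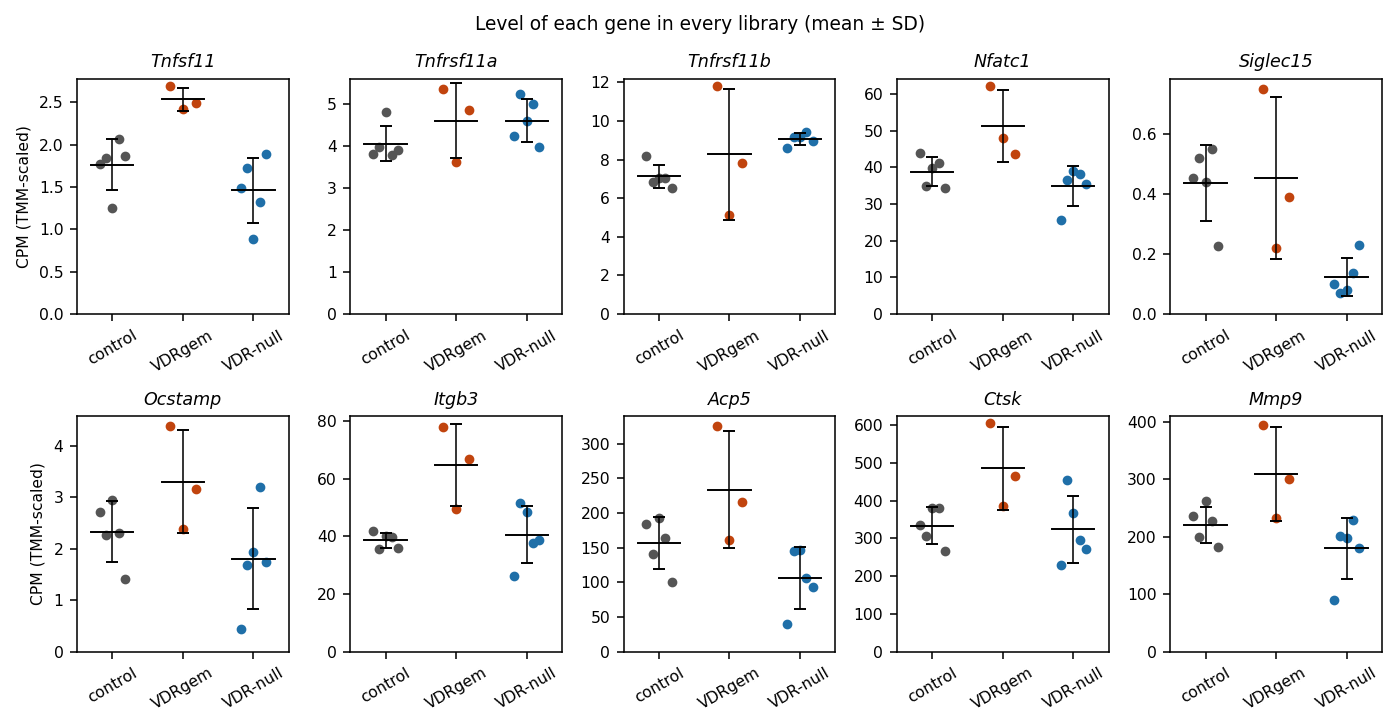
Level of each of the 10 genes in every library, in CPM scaled by trimmed mean of M values (TMM), for control (n = 5), VDRgem (n = 3) and VDR-null (n = 5). Points are libraries, the long line is the group mean and the bars are ± 1 SD. VDRgem 1, the leftmost VDRgem point, is the highest of 13 in each panel, and VDR-null 1, the leftmost VDR-null point, is the lowest in 6.

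Against control, VDRgem incisors rose in 1 of the 10 genes, Itgb3. Fitted log2 fold changes were above 0 for 10 of 10 genes, with a median of 0.49 against 0.00 over the 17837 genes tested. Of all genes, 8.62% were called in that comparison, 4.8% being higher in VDRgem, and 50.1% had a fold change above 0. At the thresholds of the series text (an unadjusted p under 0.05, with a log2 change of over 0.3 either way) 4 of 10 passed, against 19% of all genes. In 3 of 10 genes (Tnfsf11, Ctsk and Itgb3) every VDRgem library was above every control, against 9.01% of all genes. Without VDRgem 1 no member was called, at 0.364% of all genes called, and the median was 0.25. It was 0.32 with library totals as size factors, 0.21 with the mean of macrophage markers as a covariate, and -0.012, with 5 of 10 genes above 0, with the mean of oral keratinocyte markers as a covariate.

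Between VDR-null and control, 0 of the 10 genes were called by edgeR, 0 by DESeq2 and 0 by limma-voom, at 1.33% of all genes called by edgeR. At an unadjusted p under 0.05 there was 1, Siglec15, where 22.8% of all genes had one. The median log2 fold change was -0.20 against 0.01 over all genes, and 3 of 10 were above 0, against 51.5%. At the thresholds of the series text 1 of 10 passed, against 13.2%. One gene, Tnfrsf11b, was higher in every VDR-null library than in every control, a pattern shown by 3.91% of all genes.

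The count was highest between the mutants, as it was over all genes. In VDRgem against VDR-null, 6 of 10 were called, each higher in VDRgem (Tnfsf11, Nfatc1, Siglec15, Itgb3, Acp5 and Mmp9), where 18.8% of all genes were called and 10.6% were called higher. The median log2 fold change was 0.73 against -0.02 over all genes, with 9 of 10 above 0 against 47.1%. At the thresholds of the series text 7 of 10 passed, against 27.5%. All VDRgem libraries lay above all VDR-null libraries for 4 of 10 (Tnfsf11, Nfatc1, Acp5 and Mmp9), against 9.17% of all genes. The 6 calls hang on 1 library: without VDRgem 1 the count was 0, with 2.39% of all genes called and a median of 0.54. It was also 0 when only these 8 libraries entered the fit, with 4.3% of all genes called. Without VDR-null 1 it was 5, with 11.6% of all genes called. The 3 comparisons share their libraries in pairs, so they are not independent of each other.

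**Figure D2:**
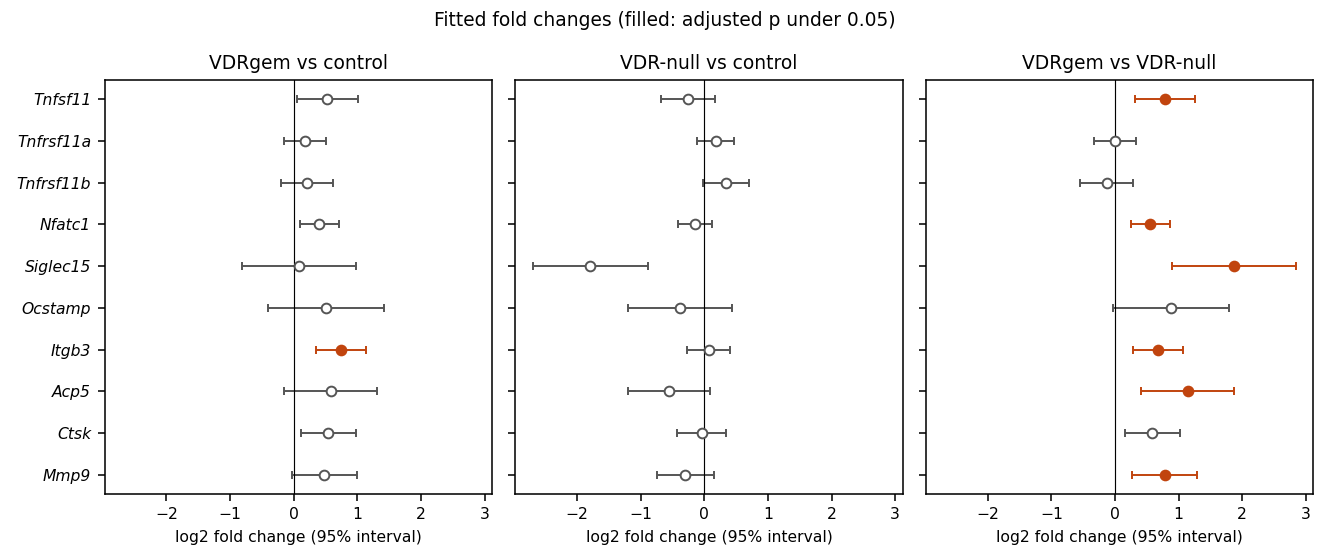
Fitted log2 fold changes of the 10 genes in the 3 comparisons, with 95% intervals from the edgeR fit. Filled points passed an adjusted p of 0.05: Itgb3 in VDRgem against control, none in VDR-null against control, and 6 genes in VDRgem against VDR-null.

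Tnfsf11, the ligand gene (chr14:78277445-78308043, minus strand), was low in every incisor. Controls 1 to 5 had 1.77, 1.85, 1.26, 2.07 and 1.86 CPM. The VDRgem libraries had 2.69, 2.42 and 2.49 CPM, and VDR-null libraries 1 to 5 had 1.49, 1.72, 0.89, 1.32 and 1.88. The 3 VDRgem libraries were close together and above all 10 others, and the control and VDR-null ranges overlapped. Against control the log2 fold change in VDRgem was 0.53 ± 0.22 (SE), which did not pass (adjusted p = 0.164). Against VDR-null it rose by 0.78 ± 0.22, 1.72-fold (95% interval 0.31 to 1.26, adjusted p = 0.0282). VDR-null against control gave -0.26 ± 0.20 (adjusted p = 0.468). Without VDRgem 1 the difference between the mutants was 0.73 (adjusted p = 0.124), and without VDR-null 1 it was 0.79 (adjusted p = 0.0538).

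The receptor gene Tnfrsf11a (chr1:105780718-105847981, plus strand) showed no called difference. Controls had 3.81, 3.98, 4.81, 3.79 and 3.91 CPM, VDRgem 5.35, 3.61 and 4.86, and VDR-null 4.24, 5.23, 4.61, 4.99 and 3.97. All 3 groups overlapped, and the lowest and the highest library were both VDRgem. Log2 fold changes were 0.18 ± 0.16 in VDRgem and 0.18 ± 0.14 in VDR-null against control (adjusted p = 0.518 and 0.449). Between the mutants the difference was 0.00 ± 0.16, with a 95% interval of -0.33 to 0.33.

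Tnfrsf11b, the decoy receptor gene (chr15:54250619-54278484, minus strand), was tightly grouped in VDR-null and scattered in VDRgem. Its level was 8.16, 6.87, 7.05, 7.06 and 6.54 CPM in controls and 8.58, 9.16, 9.17, 9.42 and 8.96 in VDR-null. Every VDR-null library was above every control, by a log2 fold change of 0.34 ± 0.17 that did not pass (adjusted p = 0.237). VDRgem 1, 2 and 3 had 11.83, 5.13 and 7.84 CPM, spanning the range of both other groups. The fold change in VDRgem against control was 0.21 ± 0.19 (adjusted p = 0.541), and its sign turned without VDRgem 1 (-0.14, adjusted p = 0.709).

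The balance of ligand to decoy was read as log2 CPM of Tnfsf11 minus that of Tnfrsf11b in each library. It was -2.18, -1.87, -2.45, -1.75 and -1.79 in controls, -2.12, -1.07 and -1.64 in VDRgem, and -2.49, -2.39, -3.31, -2.80 and -2.23 in VDR-null. The group means were -2.01 ± 0.30 (SD, n = 5), -1.61 ± 0.53 (n = 3) and -2.64 ± 0.43 (n = 5). All VDRgem values were above all VDR-null values, and the difference of 1.03 had p = 0.0179 in a two-sided exact permutation test, the smallest that 56 arrangements allow (adjusted over 3 comparisons, p = 0.0476). VDR-null was lower than control by a difference of -0.63 (exact permutation p = 0.0317, adjusted p = 0.0476), although the 2 groups overlapped. VDRgem against control gave 0.40 (exact permutation p = 0.25, adjusted p = 0.25). In each of the 2 differences that passed, leaving out 1 library raised the adjusted exact permutation p above 0.05 in 11 of 13 cases. That count is in part set by the test, since fewer libraries allow fewer arrangements and each adjusted p depends on the other comparisons. Leaving out a control, for example, changes only the adjustment of the p between the mutants. The count therefore cannot show how far a difference rests on 1 library. With 1 library left out the differences ranged from 0.76 to 1.29 and from -0.74 to -0.47.

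**Figure D3:**
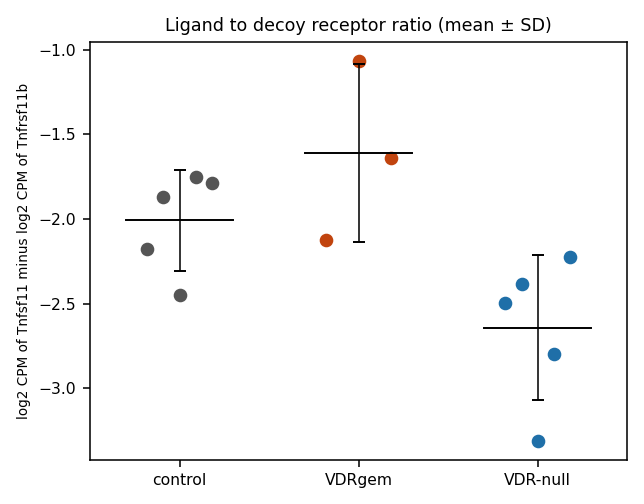
Log2 CPM of Tnfsf11 minus log2 CPM of Tnfrsf11b in every library, with group means (long lines) and ± 1 SD. The 3 VDRgem values (-2.12 to -1.07) lie above the 5 VDR-null values (-3.31 to -2.23), and control values (-2.45 to -1.75) overlap both.

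Nfatc1, the transcription factor induced by RANK signalling (chr18:80606205-80713071, minus strand), was at 43.8, 35.0, 39.8, 41.1 and 34.4 CPM in controls. In VDRgem it was at 62.2, 48.0 and 43.7 CPM, and in VDR-null at 25.7, 36.4, 39.1, 38.2 and 35.4. Its VDRgem values were all above the VDR-null values, while VDRgem 3 lay within the control range and VDR-null 1 stood below the rest of its group. Nfatc1 was higher in VDRgem than in VDR-null by 0.55 ± 0.14 on the log2 scale, 1.47-fold (adjusted p = 0.0182). Against control it did not pass in VDRgem (0.40 ± 0.14, adjusted p = 0.0964) or in VDR-null (-0.15 ± 0.12, adjusted p = 0.493). Without VDRgem 1 the difference between the mutants was 0.38 (adjusted p = 0.138). An annotated antisense gene, AC123818.1, overlaps Nfatc1, and the strand setting of the counting is not given in the sources used here.

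Siglec15 encodes a sialic acid-binding surface receptor that takes part in osteoclast fusion and signals through DAP12 (chr18:78043614-78057395, minus strand). It was the least abundant of the 10 genes, with 11 to 29 counts per control library, 10 to 39 per VDRgem library and 2 to 9 per VDR-null library. These counts came to 0.45, 0.52, 0.44, 0.55 and 0.23 CPM in controls, 0.75, 0.22 and 0.39 in VDRgem, and 0.10, 0.07, 0.08, 0.14 and 0.23 in VDR-null. Only VDR-null 5 reached the lowest control and VDRgem libraries. VDR-null against control gave the largest fold change of the 10 genes in any comparison run against control, -1.79 ± 0.42, just short of the threshold (adjusted p = 0.0519). Against VDR-null it was higher in VDRgem by 1.87 ± 0.45, 3.65-fold (95% interval 0.90 to 2.84, adjusted p = 0.0151), and VDRgem against control gave 0.08 ± 0.42 (adjusted p = 0.939). VDR-null against control passed without VDRgem 1 (-1.79, adjusted p = 0.0359) and without VDR-null 5 (-2.09, adjusted p = 0.0436), and DESeq2 gave it no adjusted p.

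The Siglec15 transcript also stands apart in base composition. Its exons are 68.2% GC, above 99.8% of the genes tested, whose median is 49.7%. The libraries differed in how their counts leaned on GC content: per 10 points of GC, log2 levels changed by -0.33, -0.22, 0.04, -0.06 and -0.23 in VDR-null 1 to 5, by 0.30, 0.18 and -0.04 in VDRgem 1 to 3, and by -0.04 to 0.16 in controls. With an offset for each library's own GC trend, chosen after seeing the data, the Siglec15 difference was -1.06 in VDR-null against control (adjusted p = 0.192) and 0.96 between the mutants (adjusted p = 0.130). That offset left 3 of the 6 calls between the mutants, where 14.4% of all genes were then called. The 3 were Tnfsf11 (0.89, adjusted p = 0.0168), Itgb3 (0.57, adjusted p = 0.0422) and Nfatc1 (0.37, adjusted p = 0.0382). Acp5 (55.9% GC) and Mmp9 (55.2% GC) then had 0.87 (adjusted p = 0.0693) and 0.54 (adjusted p = 0.0922).

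Ocstamp, a multipass membrane protein needed for precursor fusion (chr2:165393760-165400405, minus strand), showed no called difference. Its levels were 2.71, 2.27, 2.95, 2.30 and 1.41 CPM in controls, 4.37, 2.38 and 3.15 in VDRgem, and 0.44, 1.68, 1.94, 3.20 and 1.73 in VDR-null. VDR-null 1 was far below the other libraries and VDRgem 1 above them, and all groups overlapped. The difference between the mutants was 0.88 ± 0.42 (95% interval -0.03 to 1.79, adjusted p = 0.155).

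Itgb3 (chr11:104608000-104670476, plus strand) was the gene of the 10 called between VDRgem and control. Control libraries were close together at 41.7, 35.7, 40.1, 39.7 and 36.1 CPM, and VDRgem libraries had 77.9, 49.5 and 66.8. All 3 VDRgem values were above all 5 controls, a log2 fold change of 0.74 ± 0.18 or 1.68-fold (95% interval 0.36 to 1.13, adjusted p = 0.0252). VDR-null libraries had 26.3, 51.5, 48.6, 37.7 and 38.6 CPM, around the control level (0.07 ± 0.16, adjusted p = 0.841). Between the mutants Itgb3 was higher in VDRgem by 0.68 ± 0.18 (adjusted p = 0.0220), with VDRgem 2 inside the VDR-null range. The rise over control did not pass without VDRgem 1 (0.58, adjusted p = 0.158), and adjusted p was 0.055 without control 2 and 0.059 without control 5. It held with the GC offset (0.69, adjusted p = 0.0240).

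Among the secreted enzymes, Acp5 (chr9:22126727-22135711, minus strand) varied most between libraries. It stood at 184, 140, 193, 164 and 100 CPM in controls, at 325, 161 and 215 in VDRgem, and at 39.9, 146, 147, 105 and 92.9 in VDR-null. The lowest VDRgem library was still above the highest VDR-null library, and both groups overlapped the controls. Acp5 was higher in VDRgem than in VDR-null by 1.14 ± 0.34, 2.2-fold (95% interval 0.41 to 1.87, adjusted p = 0.0339). Against control the changes were 0.58 ± 0.34 in VDRgem (adjusted p = 0.328) and -0.56 ± 0.30 in VDR-null (adjusted p = 0.282). The difference between the mutants was 0.82 without VDRgem 1 (adjusted p = 0.202) and 0.93 without VDR-null 1 (adjusted p = 0.0373). The non-coding gene 6530413G14Rik overlaps Acp5 on the other strand, so reads of the 2 genes cannot be told apart where counting ignored strand.

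Mmp9 (chr2:164940780-164955850, plus strand) followed Acp5 from library to library. Controls had 235, 200, 262, 227 and 181 CPM, VDRgem 394, 232 and 300, and VDR-null 89.6, 202, 198, 229 and 180. VDR-null 1 lay far below the rest of its group, and every VDRgem library lay above every VDR-null library. Mmp9 was higher in VDRgem than in VDR-null by 0.78 ± 0.24, 1.72-fold (adjusted p = 0.0372), and by 0.61 without VDR-null 1 (adjusted p = 0.0333). Against control, VDRgem gave 0.48 ± 0.24 (adjusted p = 0.240) and VDR-null -0.30 ± 0.21 (adjusted p = 0.415).

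Ctsk, the most abundant of the 10 genes (chr3:95499256-95509362, plus strand), had 335, 305, 380, 381 and 267 CPM in controls. VDRgem libraries had 605, 387 and 466 CPM, all above the controls, and VDR-null libraries 230, 456, 367, 295 and 271, spread on both sides of them. Neither mutant differed from control by the test (0.54 ± 0.20, adjusted p = 0.115 in VDRgem, and -0.04 ± 0.18, adjusted p = 0.912 in VDR-null). The difference between the mutants was 0.59 ± 0.20 and missed the threshold (adjusted p = 0.0574).

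Across the 13 libraries the effector genes moved together even after each group's mean was removed. Acp5 and Ctsk had a Pearson r of 0.89 (permutation p = 0.00055, adjusted over 5 relations p = 0.00275) and a Spearman rho of 0.92 (permutation p = 0.00025). Leaving out the 2 libraries farthest from the median of Ctsk gave r = 0.90. With Tnfrsf11b the r of Acp5 was 0.52 (permutation p = 0.00369, adjusted p = 0.00922) and rho 0.80 (permutation p = 0.0018), or r = 0.57 without the 2 farthest libraries. Levels with the group differences left in gave r = 0.08 for the same pair of genes (permutation p = 0.783).

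For the ligand the relation depended on how it was read. With group means removed, the r of Acp5 with Tnfsf11 was -0.26 (permutation p = 0.513) and rho -0.21 (permutation p = 0.548), and r was 0.21 without the 2 farthest libraries. With group differences left in, r was 0.37 (permutation p = 0.215, adjusted p = 0.358), or 0.73 without the 2 farthest libraries, control 3 and VDR-null 3. Among all pairs of the 10 genes, given as a description, within-group r was highest for Mmp9 with Ocstamp at 0.96, and for Acp5 with Mmp9 and with Itgb3 at 0.93. Siglec15 was the loosest of the effectors, with r between 0.20 and 0.41 against the other effector genes and Nfatc1. All of these genes share each library's depth, dissection and base composition.

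The genes whose pattern was most like the mean of Acp5, Ctsk, Mmp9, Itgb3, Siglec15 and Ocstamp were looked for among 14160 tested genes whose mean reached 1 CPM. Over 13 libraries the 5 highest r were those of Slc8b1 (0.96), Rnf44 (0.95), Arhgap27 (0.95), Git1 (0.94) and Ehbp1l1 (0.94), against a median r of -0.04. With group means removed they were 0.93, 0.94, 0.92, 0.88 and 0.87. The osteoclast transcription factor genes Spi1 (PU.1) and Jdp2, named here after their ranks were seen, were at ranks 13 and 20 with r of 0.93 and 0.92.

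Other genes of osteoclast formation were read from 7 lists that hold 94 tested genes outside the 10. In VDRgem against control 14 of them rose and 2 fell, 17.0% against the 8.62% of all genes, with a median log2 fold change of 0.25. In VDR-null against control edgeR called 0 of 94 (1.33% of all genes), DESeq2 8 (9.23%) and limma-voom 1 (1.39%), and 22 had an unadjusted p under 0.05, as did 22.8% of all genes. Between the mutants 23 were higher and 3 lower in VDRgem, 27.7% against 18.8%. Without VDRgem 1 the count was 1 in VDRgem against control (Bhlhe40, so that 0 genes of each of the other lists were called). It was 5 in VDR-null against control and 4 between the mutants. Of all genes, 0.364%, 3.75% and 2.39% were called in that fit, in the same order. The lists overlap in 4 genes, Car2, Atp6v0d2, Dcstamp and Oscar, which count 1 time each among the 94.

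Of 23 genes of RANK signal transduction, 4 rose and 1 fell in VDRgem against control, where 8.62% of all genes were called. The AP-1 genes led. Fosl2 rose by 0.66 ± 0.11 (adjusted p = 0.0098), Fos by 2.03 ± 0.36 (adjusted p = 0.0098) and Junb by 1.68 ± 0.41 (adjusted p = 0.0251). Fos and Junb are also immediate early genes of many cell types, and Fos ran from 10.8 to 41.7 CPM in VDRgem against 5.04 to 9.75 in controls. Lgr4, a second receptor for RANKL, rose by 0.38 and Tab1, an adaptor of the kinase TAK1, fell by 0.38. In VDR-null the same 2 genes had 0.37 and -0.38 and narrowly missed the threshold (adjusted p = 0.0525 for both).

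Among 13 genes of CSF1 signalling and ITAM costimulation, the second input that precursors need, 2 rose in VDRgem, against 4.8% of all genes. Il34, which encodes the alternative ligand of the CSF1 receptor, went from 1.19 ± 0.12 CPM (SD, n = 5) in controls to 3.02 ± 1.31 (n = 3), a log2 fold change of 1.34 ± 0.37 (adjusted p = 0.0375). Plcg2, the phospholipase behind the calcium signal, rose by 0.47 ± 0.13 (adjusted p = 0.0369). In VDR-null, Fcer1g, an ITAM adaptor, had 0.41 ± 0.11 (adjusted p = 0.0612). Csf1r itself had 88.6 ± 8.67, 111 ± 24.7 and 105 ± 20.95 CPM in control, VDRgem and VDR-null, with no call in either mutant against control.

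Of 12 transcription factors of the lineage 1 rose in VDRgem, where 8.62% of all genes were called, 4.8% being higher. Bhlhe40, a basic helix-loop-helix factor, was at 96.7 ± 46.3 CPM against 40.9 ± 3.73 in controls (1.24 ± 0.22, adjusted p = 0.0098), and it stayed called without VDRgem 1 (0.77, adjusted p = 0.0358). Esrra, a regulator of mitochondrial genes, had 0.41 ± 0.15 in VDRgem (adjusted p = 0.107) and -0.55 ± 0.13 in VDR-null (adjusted p = 0.0554). Between the mutants Esrra was higher in VDRgem by 0.97 ± 0.15 (adjusted p = 0.0026), with no overlap of the groups.

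The acid machinery that dissolves mineral did not pass in either mutant against control. Of its 10 genes edgeR, DESeq2 and limma-voom each called 0, with 2 at an unadjusted p under 0.05 in each mutant, where 23.9% of all genes had one in VDRgem and 22.8% in VDR-null. Car2 (carbonic anhydrase 2) had 0.31 ± 0.12 in VDRgem (adjusted p = 0.130). In VDR-null 6 of the 10 were above 0: Ostm1, a partner of the chloride channel ClC-7, had 0.25 ± 0.10 (adjusted p = 0.164), and Tcirg1, a subunit of the vacuolar proton pump, had -0.25 ± 0.15 (adjusted p = 0.343). Between the mutants 1 of the 10 was called, where 18.8% of all genes were called and 10.6% were called higher. This was Slc4a2, the chloride and bicarbonate exchanger, higher in VDRgem by 0.54 ± 0.13 (adjusted p = 0.0165).

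In VDRgem against control 4.8% of all genes were called higher, and in the fusion and attachment list 2 of 11 genes were. These were Cd9, a tetraspanin, by 0.91 ± 0.20 (adjusted p = 0.0181), and Cd47, the SIRPα ligand, by 0.39 ± 0.11 (adjusted p = 0.0394). Both are made by many other cells of the incisor. Cd47 had 83.2 ± 10.2 CPM in VDRgem and 81.4 ± 11.3 in VDR-null against 63.6 ± 3.33 in controls. Its log2 fold change in VDR-null was 0.36 ± 0.09, with every library above every control (adjusted p = 0.0612). Ptk2b, the kinase PYK2 downstream of integrin β3, had 0.55 ± 0.18 (adjusted p = 0.0742). In a list of 9 osteoclast markers, 4 of them shared with the lists above, 2 rose, Cd109 by 0.66 ± 0.15 (adjusted p = 0.0194) and Mmp14 by 0.42 ± 0.12 (adjusted p = 0.0375). Mmp14 is widely made by mesenchyme, and at 1173 ± 53.9 CPM in controls it set the summed level of that list. Calcr, the calcitonin receptor that marks mature osteoclasts, stayed between 0.02 and 0.60 CPM over all libraries.

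On the side of the cells that regulate osteoclasts, 3 of 20 tested genes rose and 1 fell in VDRgem, against 8.62% of all genes called. Efnb2, the ephrin of bidirectional coupling, rose by 0.49 ± 0.12 (adjusted p = 0.0263) and Pth1r, the receptor for parathyroid hormone, by 0.52 ± 0.14 (adjusted p = 0.0376). Sema3a, a repressor of osteoclast formation, dropped from 26.6 ± 2.78 CPM in controls to 14.9 ± 1.29 in VDRgem (-0.84 ± 0.23, adjusted p = 0.0406). The third gene that rose was Il1a, at 0.41 ± 0.12 CPM against 0.13 ± 0.05. In VDR-null Il1a stood at 0.37 ± 0.22 CPM, a log2 fold change of 1.52 ± 0.43 over control that did not pass (adjusted p = 0.0720). In VDR-null, Ror2, a Wnt5a receptor, had -0.42 ± 0.10 (adjusted p = 0.0571) with every library below every control.

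Most markers of oral keratinocytes were also higher in VDRgem. Of 12 tested oral keratinocyte markers 11 were called higher in VDRgem than in control, against 4.8% of all genes. The list mean was 9.98, 8.25 and 4.78 log2 CPM in VDRgem 1, 2 and 3. Controls had 1.67 to 4.74 and VDR-null libraries 1.22 to 3.65. Of the defining keratins, Krt10 ran from 14.1 to 1963 CPM in VDRgem against 4.05 to 6.96 in controls, while Ivl was at 0 in all VDRgem libraries. The summed CPM of the list were 1587 to 24541 in VDRgem, with 937 to 1525 for control and 473 to 1541 for VDR-null. VDRgem 1, the top library of all 10 genes, was thus also the top library of the keratinocyte list. VDRgem 2 and 3 stood in the reverse order. The mean log2 CPM of Acp5, Ctsk, Mmp9, Itgb3, Siglec15 and Ocstamp was 4.79 in VDRgem 2 and 5.23 in VDRgem 3. VDRgem 2 was within the 4.34 to 5.01 of controls, although it was far above VDRgem 3 in the keratinocyte list. Acp5 had an r of 0.66 with that list over all libraries (permutation p = 0.0176, adjusted p = 0.0439) and of 0.40 with group means removed (permutation p = 0.177, adjusted p = 0.221). With the list mean as a covariate no gene of the 10 was called in any comparison. Of all genes, 0% were then called in VDRgem against control, 0.398% in VDR-null against control and 0.0729% between the mutants. Log2 fold changes between the mutants were then 0.42 for Acp5, 0.44 for Itgb3, -0.03 for Nfatc1 and 0.80 for Tnfsf11. The part of surrounding epithelium in these results cannot be told apart from that of the genotype.

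Markers of macrophages, which share precursors with osteoclasts, did not follow the order of the effector genes. Their mean was 3.84 to 4.14 log2 CPM in controls, 4.08 to 4.70 in VDRgem and 4.14 to 4.63 in VDR-null, with summed CPM of 331 to 399, 383 to 571 and 394 to 540. Of 14 markers 1 rose in VDRgem (Cd163) and 2 rose in VDR-null (Adgre1 and Cd163), while no effector was called in VDR-null. Of all genes, 4.8% were called higher than control in VDRgem and 0.678% in VDR-null. Csf1r is in both the macrophage and the CSF1 list. Within groups Acp5 and the macrophage list had r = 0.58 (permutation p = 0.0739, adjusted p = 0.123). With the macrophage mean as a covariate 7 of the 10 genes were called between the mutants and 0 in VDRgem against control. Of all genes, 18% were then called between the mutants and 1.12% in VDRgem against control.

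The cells that make RANKL were read the same way. Dental follicle and periodontal ligament markers had a mean of 6.88 to 7.45 log2 CPM in VDRgem. That was above the 5.94 to 6.26 of controls and the 5.93 to 6.49 of VDR-null. Of these markers 6 of 9 were called higher in VDRgem than in control, against 4.8% of all genes. The follicle list shares Pthlh with the list of regulators. The list mean of osteoblast and osteocyte markers overlapped between groups, at 7.88 to 8.56, 8.41 to 8.78 and 7.60 to 8.72 log2 CPM in control, VDRgem and VDR-null. Their summed CPM, mostly Col1a1, were 65271 to 108773, 118131 to 126532 and 43364 to 123550, with every VDRgem library above every control. By edgeR 0 of 12 were called in either mutant against control, where 8.62% of all genes were called in VDRgem and 1.33% in VDR-null. At an unadjusted p under 0.05 there were 3 and 1, where 23.9% of all genes had one in VDRgem and 22.8% in VDR-null. VDR-null 1, lowest in 6 of the 10 genes, was also the lowest library of the osteoblast list at 7.60. Skeletal muscle markers were highest in VDR-null 3 (5.25 log2 CPM) and VDRgem 1 (4.01), against -0.74 to 1.23 in controls. Of 6 tested neutrophil markers 0 were called in either mutant against control by edgeR, at the same shares of all genes. At an unadjusted p under 0.05, 1 was lower in VDRgem and 5 in VDR-null, against 23.9% and 22.8% of all genes in either direction. Whether the amount of follicle tissue moved the level of Tnfsf11 was not tested.

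**Figure D4:**
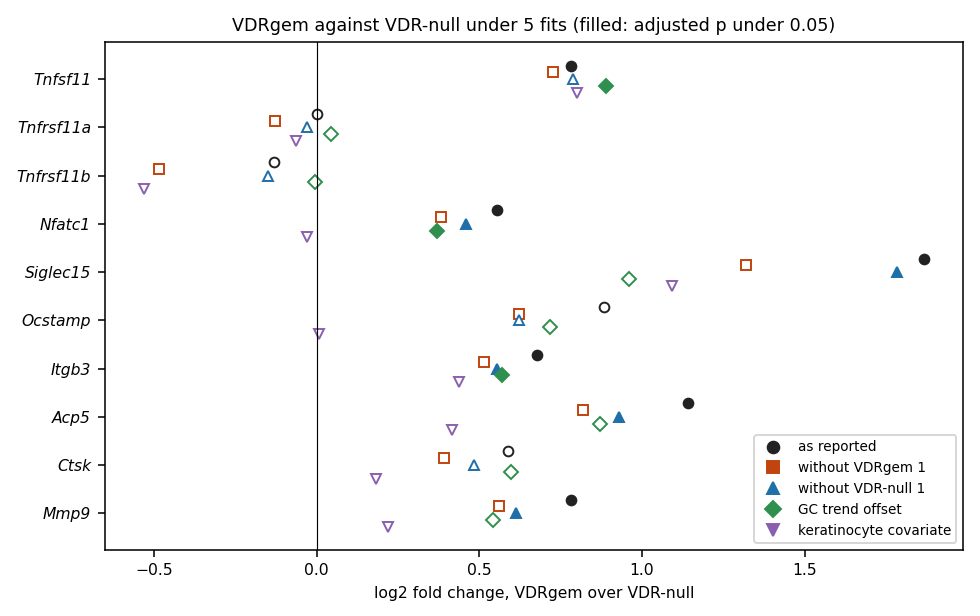
Log2 fold change of each gene in VDRgem against VDR-null under 5 fits: as reported, without VDRgem 1, without VDR-null 1, with an offset for each library's GC trend, and with the keratinocyte list mean as a covariate. Filled symbols passed an adjusted p of 0.05: 6 as reported, 0 without VDRgem 1, 5 without VDR-null 1, 3 with the GC offset and 0 with the covariate. Of all genes, 18.8%, 2.39%, 11.6%, 14.4% and 0.0729% passed in these fits, in the same order. Tnfsf11 lies between 0.73 and 0.89 in all 5 fits but passed only as reported and with the GC offset. Nfatc1 crosses 0 with the covariate.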

How the data were processed

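The deposited table holds whole-number read counts per gene for 13 libraries, which the authors made from stranded poly-A libraries, per the labels' protocols. The submitters' processing notes name bcl2fastq 2.20.0.422, STAR 2.5.3a and HTSeq 0.6.1p1 and the mm10 build; the sources used here do not give the annotation release or the strand setting of the counting. Symbols, positions and exon lengths came from GENCODE M21 on GRCm38, which is mm10, for 34618 of 34709 gene identifiers, and promoter stretches from RefSeq (GRCm38.p6).

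Counts were fitted in R 4.3.3 with edgeR 4.0.16 (quasi-likelihood test, TMM scaling, filterByExpr with a minimum count of 10) in 1 fit of all 13 libraries. Genes were called at a Benjamini-Hochberg adjusted p under 0.05 over 17837 genes. SE is the log2 fold change divided by the square root of F. Every adjusted p for a gene is from edgeR unless another tool is named. CPM are TMM-scaled, and log2 CPM has a prior count of 2. Ratios were compared by exact permutation tests over all arrangements, written in Python 3.11.15 with numpy 2.4.6. Relations of Acp5 to 5 measures were tested by 100000 permutations, within groups where group means were removed. Pearson r and ranks came from scipy 1.17.1. The fit was also run on simulated counts with changes planted in VDR-null only, and read in VDR-null against control. That run checks neither the comparisons with VDRgem nor shifts shared by a whole library.

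The named genes are all 10 members and Vdr, up to 3 genes of each list by smallest p in each mutant against control, markers of other cells with ranges, and the 5 genes most like the effector mean; further genes were named after their values were seen. Members and lists were chosen with earlier results of these data known, so lists got no test of their own. Alternatives were DESeq2 1.42.0, limma-voom (limma 3.58.1), other size factors, filters, covariates and thresholds, and leaving out libraries. Depths of 20405188 to 87783466 counts leave Siglec15, with 2 to 39 counts per library, the least precise of the 10.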

Additional observations from a re-analysis of the deposited data

Results flagged for a closer look

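In 22 sets of 5 libraries (each of the 10 genes and Vdr, in control and VDR-null), 2 had a library far from the other 4. Tnfrsf11a in control 3 was at 4.81 CPM, above 3.79 to 3.98 in the other controls, and Nfatc1 in VDR-null 1 was at 25.7 CPM, below 35.4 to 39.1 in the rest of its group. About 1 in 20 such sets is picked out by chance.

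The mutants differed from each other, by the test of that difference, in 6 genes: Tnfsf11 (0.78), Acp5 (1.14), Mmp9 (0.78), Itgb3 (0.68), Nfatc1 (0.55) and Siglec15 (1.87), as log2 fold changes of VDRgem over VDR-null. Since both mutants were set against the same controls, this is also the difference between their changes from control. Of all genes, 18.8% were called in that comparison. In each of the 6 genes 3 of 3 VDRgem libraries were above the VDR-null mean, which picking genes by this difference makes likely. Without VDRgem 1 none of the 6 passed, at adjusted p of 0.124 to 0.216 by edgeR, with 2.39% of all genes called.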

How the results depend on the processing

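No paired analysis was possible because the labels give no replicate numbers that pair libraries across groups. Counts of members called are given with the percent of all genes called. In VDRgem against control the count was 1 (8.62%). It was 0 with the keratinocyte covariate (0%) and with the macrophage covariate (1.12%). It was 2 at an adjusted p under 0.1 (13.9%), 4 at the series' thresholds (19%), and 0 to 2 with 1 library left out (0.364% to 11.1%). In VDR-null against control it was 0 (1.33%). It was 1 with library totals (1.95%), with only the groups compared (4.16%) and at both looser thresholds (9.01% and 13.2%). With 1 library left out it was 0 to 1 (0.0333% to 3.75%). Between the mutants it was 6 (18.8%). It was 0 with only the groups compared (4.3%) and with the keratinocyte covariate (0.0729%), and 3 with the GC offset (14.4%). With 1 library left out it was 0 to 7 (2.39% to 25.2%), being 0 without VDRgem 1 and 4 to 7 otherwise. Of the 94 list genes, 16 were called in VDRgem against control. Where no percent of all genes follows, it is the one given above for the same fit. They were 9 by limma-voom (5.5%), 9 with library totals (12.1%), 2 with the macrophage covariate and 0 with the keratinocyte covariate. They were 33 at the series' thresholds and 1 to 18 with 1 library left out. In VDR-null against control 0 were called. There they were 8 by DESeq2 (9.23%), 1 by limma-voom (1.39%) and 3 with library totals. They were 1 without a filter (0.664%), 4 with a mean of 1 CPM (2.98%) and 6 with only the groups compared. They were 9 at an adjusted p under 0.1, 12 at the series' thresholds, and 0 to 5 with 1 library left out. Between the mutants 26 were called. There they were 5 with only the groups compared, 0 with the keratinocyte covariate, 15 with the GC offset, and 4 to 30 with 1 library left out. The ratio kept its sign, at -0.74 to -0.47 in VDR-null against control and 0.76 to 1.29 between the mutants with 1 library left out. Acp5 with Tnfrsf11b fell to r = 0.082, Acp5 with keratinocyte markers rose to r = 0.66 and Acp5 with Tnfsf11 turned to r = 0.37 when group means were kept.

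Some signs turned. With library totals, which moved the median of all genes by -0.17 in VDRgem against control and -0.19 between the mutants, Tnfrsf11a between the mutants was -0.16 and Siglec15 in VDRgem against control -0.10. With the keratinocyte covariate sizeable changes turned too (Tfeb 0.63, Acp5 0.58, Ptk2b 0.55, Ocstamp 0.50 and Nfatc1 0.40 as reported in VDRgem against control): it gave -0.12 for Tnfrsf11b, -0.027 for Acp5, -0.088 for Nfatc1, -0.55 for Siglec15, -0.26 for Ocstamp, 0.22 for Vdr, -0.10 for Tfeb, -0.030 for Slc4a2 and -0.23 for Ptk2b in that comparison; between the mutants it gave -0.064 for Tnfrsf11a and -0.030 for Nfatc1, and in VDR-null against control 0.026 for Ctsk. The macrophage covariate gave -0.33 for Itgb3 and -0.21 for Csf1r in VDR-null against control. The GC offset gave -0.10 for Siglec15 in VDRgem against control, and 0.0044 for Slc4a2, 0.017 for Tcirg1 and 0.023 for Pxn in VDR-null against control. Without VDRgem 1 and 2, VDRgem against control gave -0.15 for Siglec15, 0.11 for Vdr and -0.079 for Ptk2b. Vdr in VDRgem against control was 0.0034 by DESeq2, 0.0034 with relative log expression factors and 0.0036 without a filter. With 1 library left out, ranges that crossed 0 were -0.13 to 0.16 for Tnfrsf11a and -0.49 to 0.13 for Tnfrsf11b between the mutants, -0.14 to 0.47 for Tnfrsf11b, -0.47 to 0.39 for Siglec15 and -0.20 to 0.22 for Vdr in VDRgem against control, and -0.21 to 0.057 for Ctsk and -0.049 to 0.19 for Itgb3 in VDR-null against control. The cause of these changes was not tested. Depth limits Siglec15, with 2 to 9 counts per VDR-null library.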
